A study of Rattus norvegicus with 12 samples.

Results

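Histone lysine methyltransferases and demethylases were followed in whole mammary glands of rat offspring. The group was set by a list of 40 genes for enzymes that write or erase methyl groups on histone lysines, with core subunits of their complexes, and 26 of the 40 had a row among the 16511 genes of the count table. The other 14 (Kdm5a, Kdm5c, Kdm3b, Kdm6a, Kdm7a, Suz12, Kmt2a, Kmt2b, Kmt2c, Kmt2d, Kmt2e, Setd1a, Setd1b and Setdb1) were not analysed here. RNA of 12 glands taken at PND21 was sequenced, 6 from offspring of dams on a high fat butter (HFB) diet and 6 from offspring of dams on a control (CTL) diet. The rats were Sprague-Dawley by the paper's methods, which also put all offspring on the control diet after birth. Each library came from a single snap-frozen gland of a separate litter. The paper named with the series gives this series for RNA of microdissected samples on the high-butterfat diet with and without bisphenol A, so its methods may not be those of these libraries, and tissue and groups are given here by the labels. The sources give more than 1 window for the HFB diet, among them a window that runs past birth. Which applies to these glands, and so whether the exposure was prenatal only, was not settled. A whole gland holds fat, epithelium, vessels and, where it is cut with the gland, muscle or lymphoid tissue. Libraries are named below by diet and library number, HFB 1 to 6 and CTL 7 to 11 and 14, and no number is shared between the diets.

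Methyl groups on histone lysines are added mostly by enzymes with a SET domain (Dot1l, which has another fold, is an exception), which draw them from S-adenosylmethionine. They are removed by flavin-dependent amine oxidases (the Kdm1 pair) or by Jumonji enzymes, which need oxoglutarate, iron and oxygen. Methylation of H3K4, H3K36 and H3K79 accompanies transcribed chromatin, whereas methylation of H3K9 and H3K27 accompanies silent chromatin, the latter being laid down by polycomb repressive complex 2 (PRC2). In the mammary gland such enzymes, Ezh2 above all, are known for roles in progenitor cells and in the growth of the epithelium.

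Total counts per library lay between 2320267 and 2760871 in the HFB group and between 2403464 and 2944680 in the CTL group, and an exact permutation test of their difference by diet, two-sided, gave p = 0.561 (adjusted p = 0.682 over 9 values). Levels are given as CPM, the counts scaled to a common library size after TMM normalization. The smallest level taken as detectable, 3 counts in a library, corresponds on this scale to between 0.945 (CTL 7) and 1.30 CPM (CTL 9) and covers counting error only. All 26 genes passed the filter on low counts, with 9382 genes of the table, and 23 of the 26 had at least 10 counts in every library. CPM also follows transcript length, which was not used here, so levels are compared between libraries. Where a gene leads a list below, this is by CPM alone and gives no order of expression between genes.

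Libraries HFB 5, HFB 6 and CTL 14 stood apart from the other 9. On the first principal component of all tested genes outside the list, which held 57.5% of the variance, HFB 6 lay at 101.5, CTL 14 at 68.4 and HFB 5 at 28.4, and the others lay between -31.4 and -16.6. Of 9 lymphoid markers 8 had a row, and their summed level was 964 CPM in HFB 6 and 969 CPM in CTL 14, with Cd79b in the lead in both. It was 259 CPM in HFB 1 and 125 CPM in HFB 2, and Lck led the list in all libraries but HFB 6 and CTL 14. The remaining HFB libraries had 22.2 (HFB 3), 8.59 (HFB 4) and 18.6 CPM (HFB 5), and the remaining CTL libraries 26.9 (CTL 7), 10.7 (CTL 8), 43.5 (CTL 9), 31.9 (CTL 10) and 9.69 CPM (CTL 11). Among the markers at 0 counts were Cd2 in HFB 3, Cd3e and Cd3d in HFB 4, Ccr7 in CTL 8, and Ms4a1, Cd3d and Ccr7 in CTL 11. Of 8 adipocyte markers 7 had a row and all 7 were detected in every library. Their summed level was 17590 CPM in HFB 6 and 14650 CPM in CTL 14 against 30963 to 39240 CPM in the other 10 libraries, led by Fabp4 throughout. The list was split in HFB 5, where Fabp4 was the highest of all libraries (25255 CPM). Lpl (1350 CPM), Plin1 (666 CPM) and Pparg (276 CPM) were lower there than in any of the 9 libraries that did not stand apart. Adipoq, Cidec and Lep in HFB 5 lay inside the range of those 9. The 82 ribosomal protein genes took 10.3% of the counts in HFB 6, 8.76% in CTL 14, 7.06% in HFB 5 and 4.22% to 5.85% in the others. Since these are bulk samples, fewer cells of a type and less RNA per cell cannot be told apart. Whether HFB 5, HFB 6 and CTL 14 also differed from the rest in RNA quality was not tested. The counts of genes at an adjusted p under 0.05 and the slopes that rest on these libraries are given with and without them.

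For each library 9 values, 8 marker scores (the mean log2 CPM of a marker list) and the total counts, were compared between the diets by two-sided exact permutation tests, and none had a p under 0.05. The lymphoid score was 0.492 to 6.42 with HFB (median 2.57) and 0.433 to 6.67 with CTL (median 1.83), with an exact permutation p of 0.608. The smallest p was that of the proliferation score, 4.21 ± 0.243 with HFB and 4.52 ± 0.357 with CTL (mean ± SD, exact permutation p = 0.113, adjusted p = 0.682). Without CTL 9, whose proliferation score was the lowest of the CTL group at 3.82, its exact permutation p was 0.00433 and that of the red blood cell score 0.0346. Both are unadjusted. Of the runs that left out 1 library, only this run had any value with a p under 0.05. The mammary epithelial markers, 7 of 8 with a row and all 7 detected in each library, summed to between 117 CPM (HFB 1) and 676 CPM (HFB 6), and Krt8 led throughout. HFB 6, CTL 14 (655 CPM) and HFB 5 (615 CPM) were the 3 highest, and the next was CTL 7 with 522 CPM. The keratins Krt8, Krt18 and Krt19 were likewise highest in these 3, whereas Epcam (51.3 CPM) and Cdh1 (38.1 CPM) were lower in HFB 6 than in CTL 7 (96.8 and 64.2 CPM). The endothelial markers, 4 of 5 with a row, summed to 420 CPM in HFB 6 and 445 CPM in CTL 14 against 131 to 220 CPM in the other 10, with Pecam1 in the lead in both. The list was not uniform, since Cdh5 was lowest of all libraries in HFB 6 (2.81 CPM) and Tek (46.1 CPM there) lay inside the range of the rest. The skeletal muscle markers, 6 of 8 with a row and all 6 detected, summed to between 151 CPM (CTL 10) and 5319 CPM (HFB 6) with Acta1 in the lead.

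**Figure D1:**
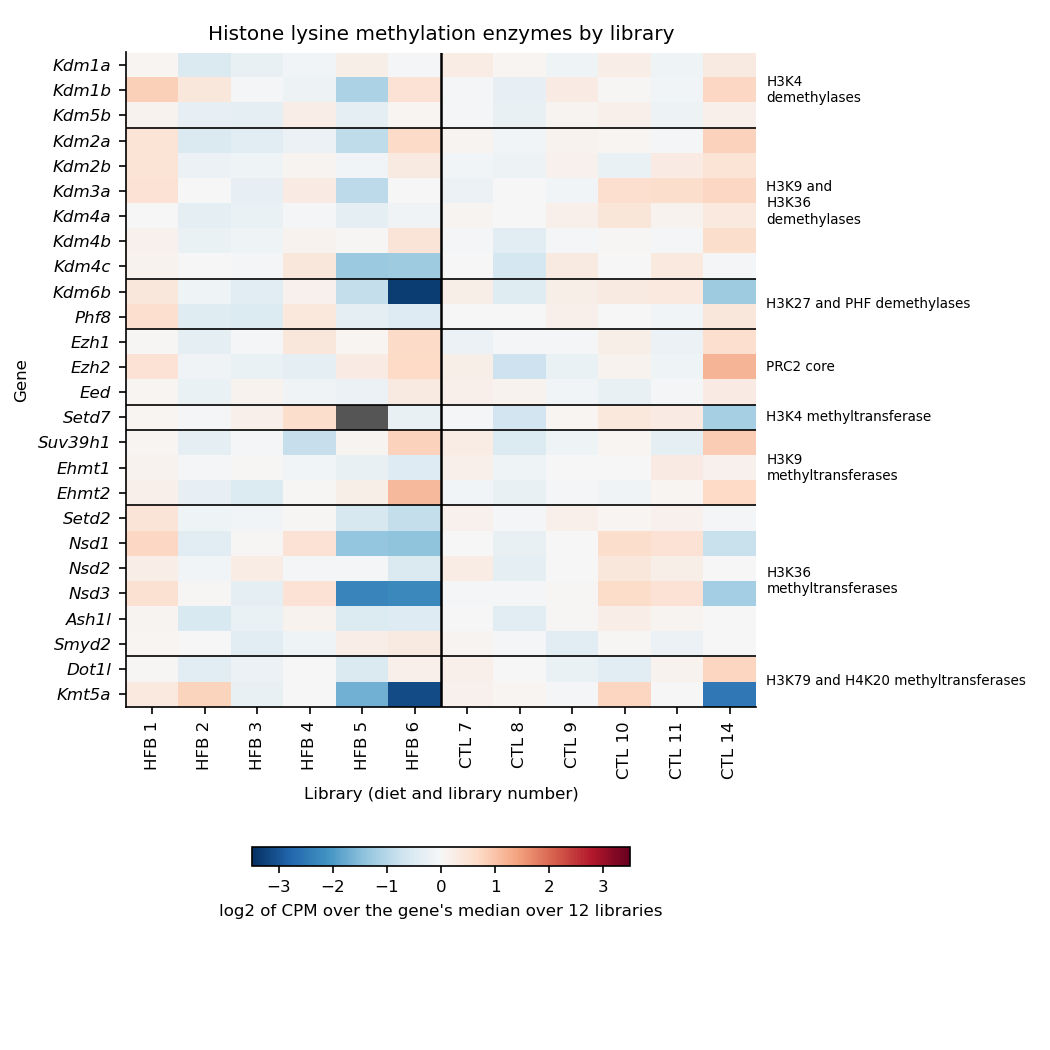
Level of each of the 26 genes (lines, by class) in each library (columns), as the log2 of its CPM over the gene's median over the 12 libraries. The darkest fields are low values of Kmt5a, Kdm6b and Nsd3 in HFB 6, HFB 5 or CTL 14, and the grey field is Setd7 in HFB 5, under 3 counts.

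Some members were low or high together in these libraries. Kdm6b, Nsd1, Nsd3 and Kmt5a were each lower in HFB 5, HFB 6 and CTL 14 than in any of the other 9 libraries. Kdm2a, Kdm4b, Ezh1, Ezh2, Eed, Suv39h1 and Ehmt2 were each higher in both HFB 6 and CTL 14 than in any of those 9. Among the other 9 libraries Nsd1, Nsd3 and Ash1l were all highest in HFB 1, HFB 4, CTL 10 and CTL 11. The genes of these sets were picked out after their values were seen. Of the 26, 13 (50%) had their lowest level in one of the 3 libraries, against 48.9% of all tested genes, and 12 (46.2%) had their highest level there, against 47.9%, so neither share sets the enzymes apart. The median SD of log2 CPM was 0.34 for the 26 and 0.4 for all tested genes, and 0.247 and 0.244 without the 3 libraries.

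Promoters of 5 of these genes, also chosen after the values were seen, are shown because 3 were low together and 2 high together in HFB 6 and CTL 14. The sequences are the 250 bases before the annotated start, read 5′ to 3′, from RefSeq on the GRCr8 build, which held an entry for 22 of the 26 (none for Ezh1, Ash1l, Nsd3 and Setd7). Capitals mark the GC box GGGCGG and the CCAAT box, each searched on both strands (also as CCGCCC and ATTGG). No GC box overlapped a CCAAT box in these 5. The first 3 belong to genes that were low in HFB 5, HFB 6 and CTL 14, Kmt5a (Entrez 689820, chr12:37818027-37818276), Kdm6b (Entrez 363630, chr10:54641015-54641264) and Nsd1 (Entrez 306764, chr17:9429522-9429771). The last 2 belong to genes that were high in HFB 6 and CTL 14, Ehmt2 (Entrez 361798, chr20:3940711-3940960) and Ezh2 (Entrez 312299, chr4:77687184-77687433). All 5 lie on the minus strand.
Kmt5a: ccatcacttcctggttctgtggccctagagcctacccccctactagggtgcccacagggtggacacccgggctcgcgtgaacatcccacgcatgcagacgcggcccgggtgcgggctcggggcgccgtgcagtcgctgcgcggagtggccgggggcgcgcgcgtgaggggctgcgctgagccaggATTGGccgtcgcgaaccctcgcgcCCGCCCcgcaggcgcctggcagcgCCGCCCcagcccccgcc
Kdm6b: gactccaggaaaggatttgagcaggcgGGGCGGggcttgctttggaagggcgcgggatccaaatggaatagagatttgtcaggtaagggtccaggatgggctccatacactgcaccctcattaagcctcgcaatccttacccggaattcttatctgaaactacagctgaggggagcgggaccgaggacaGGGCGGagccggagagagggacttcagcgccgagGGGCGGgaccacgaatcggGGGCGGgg
Nsd1: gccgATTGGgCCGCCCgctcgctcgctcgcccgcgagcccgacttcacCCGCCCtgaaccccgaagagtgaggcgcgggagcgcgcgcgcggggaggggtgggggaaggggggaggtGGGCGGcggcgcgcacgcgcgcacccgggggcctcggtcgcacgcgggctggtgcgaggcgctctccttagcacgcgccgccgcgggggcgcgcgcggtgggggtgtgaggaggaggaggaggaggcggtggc
Ehmt2: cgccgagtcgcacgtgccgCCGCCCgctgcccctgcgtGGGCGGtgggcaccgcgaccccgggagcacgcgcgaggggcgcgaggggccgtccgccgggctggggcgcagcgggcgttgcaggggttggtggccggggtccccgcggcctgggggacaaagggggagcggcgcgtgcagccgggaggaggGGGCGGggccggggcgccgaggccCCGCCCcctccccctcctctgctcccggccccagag
Ezh2: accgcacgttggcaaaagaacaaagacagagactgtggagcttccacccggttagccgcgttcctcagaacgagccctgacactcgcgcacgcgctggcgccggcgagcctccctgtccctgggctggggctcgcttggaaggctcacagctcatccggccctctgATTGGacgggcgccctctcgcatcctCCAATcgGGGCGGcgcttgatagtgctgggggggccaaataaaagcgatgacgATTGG

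The 22 genes with an entry had 24 promoters. The GC box was present in 20 of the 24 and in 30.5% of all 33469 promoters of that length, and the CCAAT box in 9 of the 24 and in 34% of all promoters. Ehmt2 and Kdm6b had 4 GC boxes and no CCAAT box, Nsd1 had 3 GC boxes and 1 CCAAT box, Kmt5a had 2 and 1, and Ezh2 had 1 GC box and 3 CCAAT boxes. Eed, which was also high in HFB 6 and CTL 14, had 0 GC boxes, as did 1 of the 2 promoters of Suv39h1. Kdm2a and Kdm4b, high in the same libraries, had 4 GC boxes each, with 0 CCAAT boxes in Kdm2a and 3 in Kdm4b. The median number of CpG was 24.5 over the promoters of the list and 5 over all promoters, with 42 in Nsd1, 36 in Ehmt2, 31 in Kmt5a, 23 in Ezh2 and 16 in Kdm6b. A match is only a run of letters in this window. The set of all promoters was not limited to genes that passed the filter on low counts, as the listed genes with an entry all did. These contrasts therefore do not set the enzymes apart from other genes expressed in the gland.

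The comparison of the diets asked whether these enzymes differed at PND21 between offspring of dams on HFB and on CTL. One gene, Kdm4a, had an unadjusted p under 0.05, and it was lower with HFB. None of the 26 passed the adjusted threshold of 0.05 in edgeR's quasi-likelihood test, as none of the 9382 tested genes did (0%). At an unadjusted p under 0.05 edgeR counted 1 of the 26 against 220 of all genes (2.34%). That was 1 of 26 lower with HFB against 1.04% of all genes, and 0 of 26 higher against 1.3%. Without HFB 5, HFB 6 and CTL 14 it counted 1 of the 26 against 5.37% of all genes. With 1 library left out at a time, the share of all genes ran from 1.42% (without HFB 5) to 6.2% (without CTL 14). DESeq2 and limma also gave 0 of 26 adjusted and 1 of 26 unadjusted, with 271 and 613 genes of the whole table unadjusted. No member had CPM ranges that did not overlap between the diets, against 0.107% of all genes. The log2 fold changes of HFB over CTL lay between -0.38 (Kdm4a) and 0.15 (Ehmt2). Their median was -0.16, with 19 of 26 below 0 (73.1%), beside 0.000184 and 50% over all tested genes. That median was -0.02, with 15 of 26 below 0, without HFB 5, HFB 6 and CTL 14, and -0.09 without HFB 5, -0.10 without HFB 6, -0.08 without CTL 10 and -0.10 without CTL 14 alone.

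**Figure D2:**
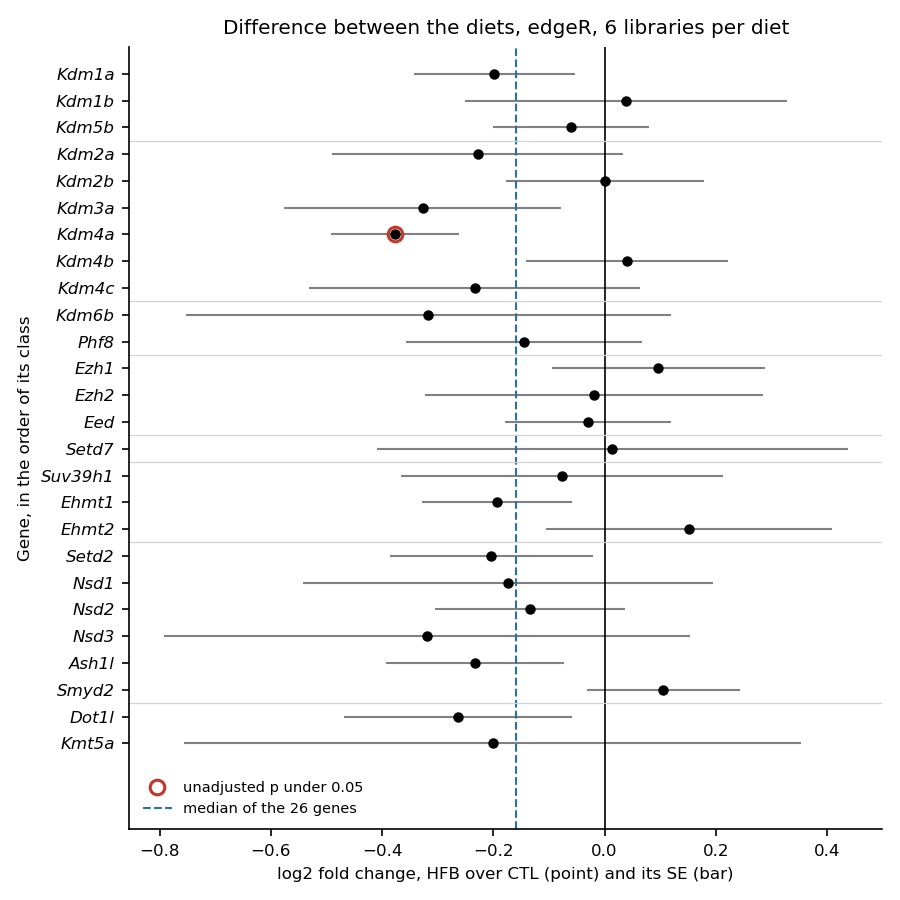
The log2 fold change of HFB over CTL of each of the 26 genes (points) with its SE (bars) from edgeR, 6 libraries per diet, in the order of the classes. The ringed point is Kdm4a (-0.38), and the dashed line is the median of -0.16.

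Among the H3K4 demethylases, Kdm1a, the amine oxidase of the CoREST complex, had 34.3 to 55.7 CPM with HFB (median 45.8) and 43.5 to 59.9 CPM with CTL (median 54.0). The diets overlapped between 43.5 and 55.7 CPM, with a log2 fold change of -0.20 ± 0.14 (SE), or -0.13 without HFB 2, and an adjusted p of 0.999 in edgeR. Kdm5b, a Jumonji enzyme that acts on trimethylated H3K4, had 50.7 to 74.5 CPM with HFB (median 59.4) and 52.6 to 72.2 CPM with CTL (median 64.1), and was among the steadier members, with a 1.47-fold span over the 12 libraries.

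Among the H3K9 and H3K36 demethylases, Kdm4a (Entrez 313539), which acts on the trimethylated forms of both lysines, lay at 46.3 to 58.0 CPM with HFB (median 51.2) and 57.7 to 78.3 CPM with CTL (median 64.4). The highest HFB library (HFB 1) was above the lowest CTL library (CTL 8), and otherwise every HFB library was below every CTL library. The means were 51.4 ± 4.77 and 66.8 ± 7.78 CPM (SD, n = 6 each). The log2 fold change was -0.38 ± 0.12 (SE), with an unadjusted p of 0.00598 and an adjusted p of 0.999 in edgeR. The unadjusted p lay between 0.00254 and 0.0207 over the 22 alternatives and was 0.0147 without HFB 5, HFB 6 and CTL 14, and the adjusted p did not fall below 0.48 in any.

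Kdm3a, which removes methyl groups from mono- and dimethylated H3K9, had 11.2 to 30.0 CPM with HFB (median 21.3) and 18.7 to 35.2 CPM with CTL (median 26.4), the lowest in HFB 5 and the highest in CTL 14. Its log2 fold change was -0.33 ± 0.25, or -0.20 without HFB 5, -0.22 without CTL 14 and -0.07 without the 3 libraries. Kdm2a, an H3K36 demethylase with a domain that binds unmethylated CpG, had 36.7 to 109 CPM with HFB (median 56.0) and 64.0 to 119 CPM with CTL (median 73.0). Its 2 highest libraries were CTL 14 and HFB 6, and the lowest was again HFB 5. With the lymphoid score as a covariate its unadjusted p for diet in edgeR was 0.0376, at an adjusted p of 1.00.

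Kdm6b, an H3K27 demethylase that is induced by inflammatory signals in macrophages, had 2.41 to 31.7 CPM with HFB (median 20.1) and 10.2 to 30.3 CPM with CTL (median 27.5). HFB 6 held only 6 counts of it, and the next lowest were CTL 14 and HFB 5 (13.5 CPM), while the 9 others had at least 17.8 CPM. Among the macrophage markers, Mrc1 was lowest in CTL 14 (32.0 CPM), HFB 6 (42.9) and HFB 5 (77.4), and Cd163 in CTL 14 (9.51) and HFB 6 (22.9). Adgre1 was lowest in CTL 14 (3.17 CPM). Cd68 was highest in HFB 6 (56.5 CPM) and CTL 14 (49.3), and Csf1r in both lay inside the range of the rest. The part of macrophages in the level of Kdm6b was not tested. Phf8, a demethylase of H3K9 and H4K20, had 20.3 to 42.8 CPM with HFB (median 21.9) and 26.5 to 37.3 CPM with CTL (median 28.5), and the 3 libraries were within the range of the rest.

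In PRC2, Ezh1 and Ezh2 are alternative catalytic subunits, Ezh2 the one associated with dividing cells. Ezh1 had 30.8 to 60.9 CPM with HFB (median 39.7) and 33.2 to 57.1 CPM with CTL (median 37.3). Ezh2 had 14.7 to 29.7 CPM with HFB (median 19.6) and 11.1 to 41.9 CPM with CTL (median 18.2). Both were highest in HFB 6 and CTL 14, whichever the diet. Their log2 fold changes were 0.10 ± 0.19 and -0.02 ± 0.30 (SE), the former -0.03 without HFB 6 and the latter 0.10 without the 3 libraries, so neither had a settled direction. The count of Ezh2 per count of Ezh1 ran from 0.291 (HFB 4) and 0.295 (CTL 8) to 0.735 (CTL 14), and in HFB 6 it was 0.487, inside the range of the rest. Suz12 was not analysed here.

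**Figure D3:**
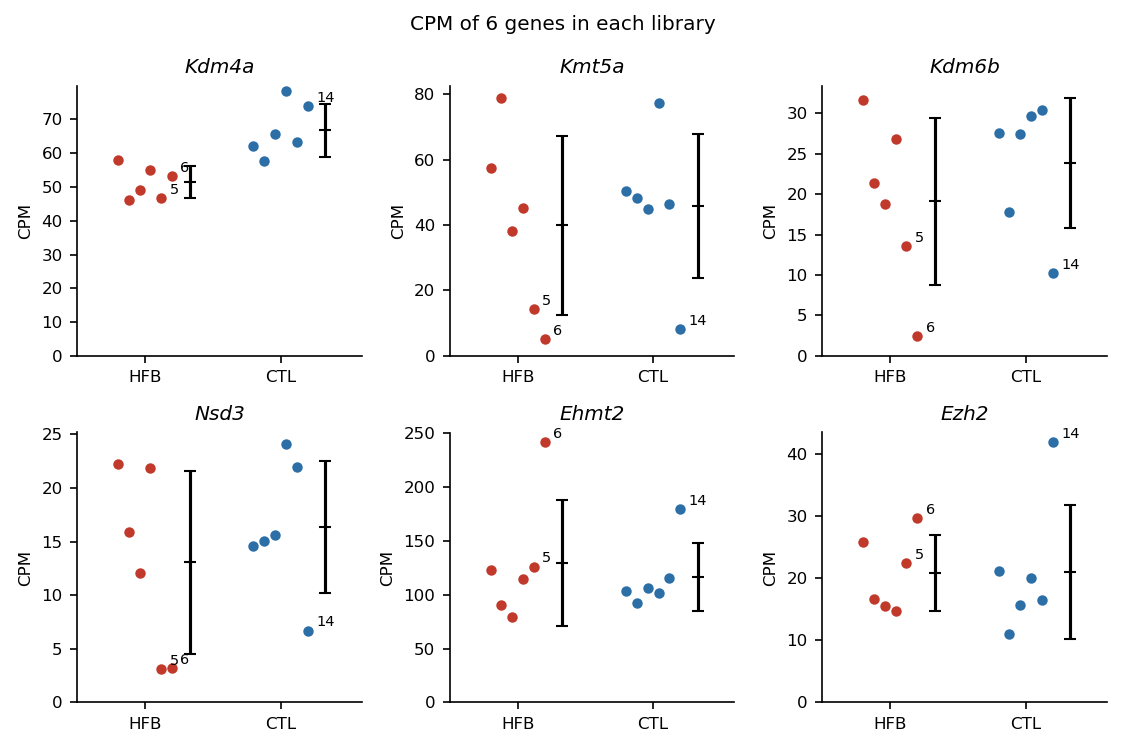
CPM of 6 genes in each library (points, linear axis from 0), with the mean and SD of each diet (bar, 6 libraries). The diets overlap for Kdm4a by HFB 1 and CTL 8. The numbered libraries (HFB 5, HFB 6 and CTL 14) are the lowest for Kmt5a, Kdm6b and Nsd3, and HFB 6 and CTL 14 the highest for Ehmt2 and Ezh2.

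Setd7, a monomethyltransferase of H3K4 and of other proteins, was the only 1 of the 8 H3K4 methyltransferases on the list with a row, and the lowest of the 26 in counts. It had 0.774 to 9.67 CPM with HFB (median 6.29) and 2.82 to 8.16 CPM with CTL (median 6.27). HFB 5 held 2 counts, which is under the detectable level, so no fold is given for that library.

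Ehmt1 and Ehmt2 form the complex that writes mono- and dimethylation of H3K9. Ehmt2 had 79.2 to 242 CPM with HFB (median 119) and 92.1 to 179 CPM with CTL (median 105), with HFB 6 and CTL 14 well above the 9 others, whose highest value was 123 CPM. Ehmt1 did not share this pattern, with 28.5 to 42.0 CPM with HFB (median 36.7) and 34.8 to 47.6 CPM with CTL (median 41.1) and its lowest value in HFB 6. The log2 fold change between the diets was 0.15 ± 0.26 for Ehmt2 and -0.19 ± 0.14 for Ehmt1, and without the 3 libraries these were -0.02 and -0.07. Suv39h1, which trimethylates H3K9 in heterochromatin, had 9.67 to 29.7 CPM with HFB (median 17.0) and 12.3 to 31.7 CPM with CTL (median 16.5), highest again in HFB 6 and CTL 14.

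All 6 H3K36 methyltransferases on the list had a row. Setd2, which travels with elongating RNA polymerase and trimethylates H3K36, had 38.1 to 91.3 CPM with HFB (median 61.6) and 63.7 to 75.6 CPM with CTL (median 72.3). The HFB libraries thus spread more widely than the CTL libraries, from HFB 6 to HFB 1, on both sides of the CTL range. The lowest were HFB 6 and HFB 5 (45.6 CPM), which stood apart, and the 9 libraries that did not had at least 60.4 CPM. The SD of log2 CPM over all libraries was 0.33, and 0.18 without HFB 5, HFB 6 and CTL 14. The difference in spread between the diets was not tested. Without HFB 1 its unadjusted p for diet in edgeR was 0.0493 and its adjusted p 0.981. Nsd3, a member of the family that mono- and dimethylates H3K36, had 3.09 to 22.2 CPM with HFB (median 14) and 6.69 to 24.1 CPM with CTL (median 15.3). HFB 5, HFB 6 and CTL 14 were the 3 lowest, and no other library was below 12.1 CPM. Its relative Nsd1 had 11.6, 11.2 and 17.3 CPM in those libraries and at least 22.3 CPM in the rest. Ash1l, which dimethylates H3K36, had 30.4 to 47.3 CPM with HFB (median 34.4) and 33.6 to 51.6 CPM with CTL (median 44.4), with a log2 fold change of -0.23 ± 0.16, or -0.12 without the 3 libraries. Smyd2, which also methylates p53, had 53.4 to 85.8 CPM with HFB (median 70.5) and 52.6 to 74.0 CPM with CTL (median 67.7).

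Dot1l, the H3K79 methyltransferase, had 17.8 to 28.5 CPM with HFB (median 23.5) and 19.3 to 43.0 CPM with CTL (median 26.8), with CTL 14 the highest. Kmt5a, which monomethylates H4K20 and is needed for chromosome condensation, had the widest spread of the list. It had 5.21 to 78.8 CPM with HFB (median 41.7) and 8.10 to 77.2 CPM with CTL (median 47.3), a 15.1-fold span over the 12 libraries. HFB 6, CTL 14 and HFB 5 (14.3 CPM) were the 3 lowest, and the 9 others lay between 38.2 and 78.8 CPM. The SD of its log2 CPM was 1.21, above that of 95.9% of the tested genes, and 0.35 without those libraries. The diets overlapped almost wholly, with a log2 fold change of -0.20 ± 0.55 (SE) and an adjusted p of 0.999 in edgeR. The direction was 0.04 without the 3 libraries, so none can be given. The 7 members not described so far or only in passing (Kdm1b, Kdm2b, Kdm4b, Kdm4c, Eed, Nsd1 and Nsd2) lay between 6.96 CPM (Kdm4c, HFB 5) and 48.9 CPM (Nsd1, HFB 1), with 18 to 133 counts per library.

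Each gene's level was then fitted on 5 of the marker scores, with diet in the model, to describe which enzymes varied together with markers of a cell type. Slopes are log2 units of the gene per unit of the score and are associations. For the lymphoid score 6 of 26 members had an adjusted p under 0.05 in edgeR and were higher with the score, against 16% of all tested genes, and 0 of 26 were lower, against 8.88%. The 6 were Kdm1b, Kdm2a, Kdm4b, Ezh2, Suv39h1 and Ehmt2. The slopes with the smallest p were 0.17 ± 0.04 for Kdm2a, 0.19 ± 0.04 for Ezh2 and 0.18 ± 0.04 for Suv39h1 (SE), with adjusted p of 0.00581, 0.00697 and 0.0101 in edgeR. The calls rested on the libraries rich in lymphoid markers, and the calls over all genes went the same way. Without HFB 6 there were 3 called members (7.68% of all genes called), without CTL 14 there were 0 (2.85%), without both 0 (0.735%) and without HFB 5 as well 0 (0.928%). Without HFB 1, the next in lymphoid markers, 8 members were called (35.8%), of which Kdm6b and Nsd1 were lower with the score. The slopes of Kdm2a, Ezh2 and Suv39h1 were 0.16 ± 0.06, 0.13 ± 0.08 and 0.11 ± 0.08 (SE) without HFB 6 and CTL 14. Without the 3 libraries they were 0.13 ± 0.06, 0.18 ± 0.07 and 0.15 ± 0.08 (SE).

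For the adipocyte score 4 of 26 were higher with the score (Kdm6b, Nsd1, Nsd3 and Kmt5a), against 27.8% of all genes, and 7 of 26 were lower (Kdm2a, Kdm4b, Ezh1, Ezh2, Suv39h1, Ehmt2 and Dot1l), against 27.7%. Kmt5a had a slope of 1.57 ± 0.21, Ehmt2 of -0.53 ± 0.07 and Suv39h1 of -0.54 ± 0.11 (SE), with adjusted p of 3.44e-05, 3.35e-05 and 0.000808 in edgeR. These calls too rested on the libraries that stood apart, since 7 of the 26 were called without HFB 6 (34.2% of all genes) and 0 without HFB 6 and CTL 14 together (0% of all genes). The slopes without those 2 were 2.56 ± 0.80 for Kmt5a, -0.73 ± 0.36 for Ehmt2 and -1.02 ± 0.59 for Suv39h1 (SE), each larger and with a wider error. Without HFB 5 as well, 0 were called (0%), and the slopes were 1.16 ± 0.85, -0.71 ± 0.54 and -1.25 ± 0.86. No share here was above that of all genes except for the higher side of the lymphoid score, and no test of that excess was made. The part that lymphoid or fat tissue had in the levels of these enzymes was not tested.

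**Figure D4:**
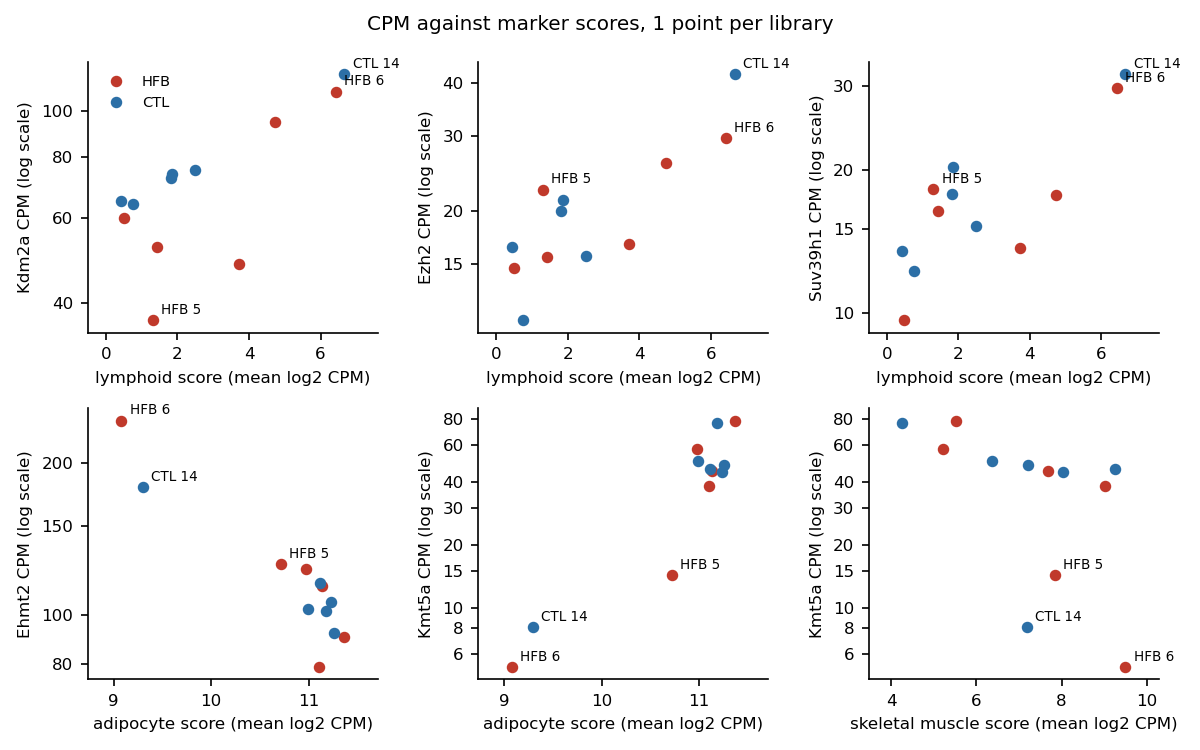
CPM of 5 genes (log axis) against the lymphoid, adipocyte or skeletal muscle score (mean log2 CPM of the markers), with 1 point per library, coloured by diet. Kdm2a, Ezh2 and Suv39h1 are highest where the lymphoid score is highest, in HFB 6 and CTL 14, and the 3 lowest Kmt5a values are those of HFB 5, HFB 6 and CTL 14.

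Among the other 3 scores no member passed in edgeR. For the mammary epithelium score 0 of 26 were higher, against 1.47% of all genes, and 0 of 26 lower, against 0.0746%, with 3 members at an unadjusted p under 0.05 beside 28.4% of all genes. The smallest p belonged to Setd2 (slope -0.26 ± 0.09), Ehmt2 (0.32 ± 0.12) and Kmt5a (-0.83 ± 0.33). Without HFB 5, HFB 6 and CTL 14 these slopes were -0.10 ± 0.10, 0.01 ± 0.10 and -0.06 ± 0.19, with 0 members called (0.295% of all genes). The slope of Ehmt2 was 0.17 ± 0.11 without HFB 6 and 0.50 ± 0.14 without HFB 1. Without HFB 4 there were 4 called members, Setd2, Nsd1, Nsd3 and Kmt5a, all lower with the score, beside 18.8% of all genes called. The unadjusted count of 3 became 8 without HFB 4 (40.6% of all genes) and 7 without HFB 1 (28.6%). It was 5 without CTL 9 (29%) or CTL 11 (28.3%). Without HFB 6 it was 1 (11.2%), as it was without HFB 5, HFB 6 and CTL 14 together (6.3%). For the skeletal muscle score 0 of 26 were higher, against 0.821% of all genes, and 0 of 26 lower, against 0%, with 0 unadjusted beside 7.14% of all genes. Kmt5a (-0.31 ± 0.15), Setd2 (-0.08 ± 0.06) and Nsd3 (-0.19 ± 0.14) came first. That of Setd2 was -0.03 without HFB 1, -0.04 without HFB 6 and -0.13 without CTL 10, and that of Nsd3 -0.11 without HFB 6 and -0.32 without CTL 11. Among the 9 libraries left without HFB 5, HFB 6 and CTL 14, Setd2 and Nsd3 had muscle slopes of -0.03 ± 0.04 and -0.07 ± 0.07. There Kmt5a had one of -0.19 ± 0.04 and an adjusted p of 0.0483 in edgeR, beside 1.12% of all genes called, and the unadjusted count was 2 (10.1% of all genes). That count was 1 without HFB 3 (10.1%), CTL 11 (11.7%) or CTL 14 (9.63%) alone, and 0 without HFB 1 (3.53%). For the proliferation score 0 of 26 were called in either direction, against 0% of all genes in each, and 2 members, Kdm1a (0.53 ± 0.23) and Smyd2 (0.51 ± 0.22), had an unadjusted p under 0.05, of 0.0357 and 0.0383, beside 1.77% of all genes. That count was 0 without HFB 3 (1.12% of all genes), CTL 7 (1.56%) or CTL 10 (1.61%). It was also 0 without CTL 9 and HFB 3 together (0.561%), the 2 libraries farthest from the median score. There the slope of Smyd2 was 0.31 ± 0.50 and that of Kdm1a 1.15 ± 0.53. The count was 1 without HFB 1 (2.88%), HFB 2 (1.52%), HFB 5 (1.81%) or CTL 8 (1.66%), and 2 without HFB 5, HFB 6 and CTL 14 together (4.76%). The slope of Ezh2 on that score was 0.86 ± 0.52. Without CTL 9, which had the lowest score of all, the slopes were 1.40 ± 0.89 for Ezh2 and 0.85 ± 0.38 for Kdm1a, and without CTL 14 that of Ezh2 was 0.57 ± 0.41. Without the 3 libraries the slopes were 0.46 ± 0.19 for Kdm1a, 0.47 ± 0.17 for Smyd2 and 0.54 ± 0.34 for Ezh2.

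Genes that work with these enzymes were read from 7 lists, and none of the genes tested passed the adjusted threshold for diet in edgeR. Counts at an unadjusted p under 0.05 stand beside 1.3% higher and 1.04% lower of all tested genes, and with lists this short 1 gene is a large share. In the COMPASS complexes, which carry the Kmt2 and Setd1 enzymes, 9 of 11 genes were tested, 1 with an unadjusted p under 0.05 higher with HFB and 1 lower. Pagr1 had 79.9 to 184 CPM with HFB (median 141) and 73.3 to 116 CPM with CTL (median 102), with a log2 fold change of 0.47 ± 0.19 and an unadjusted p of 0.0312. Paxip1, its partner in the complex, had 10.1 to 16.5 CPM with HFB (median 13.8) and 15.2 to 22.2 CPM with CTL (median 17.4), with a log2 fold change of -0.42 ± 0.18 and an unadjusted p of 0.0409. The diets overlapped for both. Of the CoREST partners of Kdm1a 4 of 7 were tested, and Rcor2 alone had an unadjusted p under 0.05 (0.0454), with 9.42 to 19.5 CPM with HFB (median 13.0), 4.21 to 11.9 CPM with CTL (median 10) and a log2 fold change of 0.59 ± 0.26. The lowest log2 fold change of that list was that of Hdac2 at -0.08, which was 0.01 without HFB 6.

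For methyl donor and oxoglutarate metabolism 11 of 14 genes were tested. Nnmt, which spends S-adenosylmethionine on the methylation of nicotinamide, had 172 to 320 CPM with HFB (median 245) and 130 to 205 CPM with CTL (median 174), with the diets overlapping. It was the 1 gene of the list with an unadjusted p under 0.05, at 0.0116, with a log2 fold change of 0.47 ± 0.16 and an adjusted p of 0.999 in edgeR. The lowest was Mtr, methionine synthase, at -0.48 ± 0.28. No tested gene of the remaining lists had an unadjusted p under 0.05. Of the PRC2 accessory genes 6 of 7 were tested, from Phf19 (-0.36) to Rbbp4 (0.17). Phf19 was at -0.02 without CTL 14 and -0.60 without HFB 6, and Rbbp4 at 0.10 without HFB 5. Of PRC1 11 of 13 were tested, from Cbx7 (-0.54, but 0.19 without CTL 14) to Pcgf6 (0.14, but -0.05 without HFB 6). Of the H3K9 readers and partners 5 of 7 were tested, from Uhrf1 (-0.41, but -0.16 without HFB 6 and -0.66 without HFB 1) to Cbx5 (0.24, but 0.10 without HFB 5). Of other lysine methyltransferases and demethylases 15 of 26 were tested, from Jmjd1c (-0.39, but -0.25 without HFB 5) to Smyd4 (0.52). The list medians of log2 fold change lay between -0.12 for the H3K9 readers and 0.07 for the CoREST partners.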

How the data were processed

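Whole glands of 12 litters were compared by diet. The authors deposited raw read counts per gene, 1 column per library, listed by Entrez identifier. The submitters' notes name bcl2fastq, CASAVA 1.8, TopHat, DESeq and the rn4 build. The counting program, annotation and use of strand are not given in the sources used here, so overlapping or near-identical genes may share reads. Symbols came from the RefSeq gene table of GRCr8 (16351 of 16511 identifiers matched).

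The test was that of edgeR 4.0.16 run under R 4.3.3 (filterByExpr, TMM, quasi-likelihood, Benjamini-Hochberg over all genes tested, threshold 0.05), with DESeq2 1.42.0 and limma 3.58.1 (voom with sample quality weights) as alternatives. SEs are the fold change over the root of the F statistic. Other alternatives were size factors of DESeq2, upper-quartile scaling, no filter, at least 10 counts per library, marker scores as covariates and leaving out each library. Leaving out HFB 5, HFB 6 and CTL 14 together was chosen after seeing the data. Log2 CPM used a prior count of 2 (0.5 as an alternative). Marker scores and totals were tested over the 924 assignments of 6 libraries against 6 with scipy 1.17.1 in Python 3.11.15, the smallest possible p being 0.00216. Fits were tested on simulated data. Within each diet all pairs of libraries differed by more than sampling noise (chi-square per degree of freedom at least 7.1).

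The members and lists were chosen with earlier results of these data known. Ranges and medians by diet were given for members picked by a rule. These were the 6 with the smallest p for diet, the highest mean CPM of each class and the 4 largest SDs. Ezh1, Ezh2 and the members with the 3 smallest p per slope were added. Kdm1b, Kdm4b, Nsd1, Eed and other members outside this rule were chosen after their values were seen. Pathway genes were named at an unadjusted p under 0.05 or as the extremes of their list.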

Additional observations from a re-analysis of the deposited data

Results flagged for a closer look

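Among 36 quantities in each diet group of 6 libraries (72 groups), 12 values lay far from the rest of their group, by the gap to the nearest library as a share of the group's range (Dixon's critical value for 6 samples). About 1 group in 20 would be picked out by chance. CTL 14 held 7 of the 12 and HFB 6 held 2. In CTL 14 these were Kdm2a (119 CPM, next 75.2), Kdm4b (46.8 CPM, next 31.5), Ezh2 (41.9 CPM, next 21.2), Ehmt2 (179 CPM, next 116), the adipocyte score (9.30, next 11), the lymphoid score (6.67, next 2.50) and the ribosomal protein share of counts (8.76%, next 5.79%). In HFB 6 they were Ehmt2 (242 CPM, next 126) and the adipocyte score (9.08, next 10.7). The proliferation score of CTL 9 was low (3.82, next 4.57), total counts were low in HFB 1 (2320267, next 2629159) and high in CTL 7 (2944680, next 2570080).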

How the results depend on the processing

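No member passed the adjusted threshold for diet under any alternative run, and Kdm4a was lower with HFB at an unadjusted p under 0.05 in all 22. The unadjusted count was 2 with the lymphoid score as a covariate (Kdm2a added, 3.87% of all genes). It was 3 with lymphoid, muscle and epithelial scores (Kdm2a and Setd2 added, 11.5% of members, 10.1% of all genes). Without 1 library each it was 1 to 2, beside 1.42% to 6.2% of all genes, and the count of 2 came without HFB 1 (3.99%). The members' median log2 fold change was -0.102 with limma, -0.0153 without HFB 5, HFB 6 and CTL 14 (a choice made after seeing the data), and -0.237 to -0.0758 without 1 library each. Called members for the adipocyte slope numbered 0 without the 2 libraries farthest from the median score (0% of all genes), 0 without those 3 (0%), and 7 to 13 without 1 library each (34.2% to 58.3%). For the lymphoid slope these were 0 (0.735%), 0 (0.928%) and 0 to 8 (2.85% to 35.8%), for epithelium 0 to 4 without 1 library each (0.624% to 18.8%), and for muscle 1 without those 3 (1.12%). Signs turned for Ezh2 with limma (0.0247), the 3 covariates (0.0572) and without the 3 libraries (0.103), for Kmt5a with the lymphoid covariate (0.0847) and without the 3 (0.0392), and for Ehmt2 with limma (-0.0498) and without the 3 (-0.024). Without 1 library each, log2 fold changes ran from -0.0273 to 0.237 for Ezh1, -0.148 to 0.316 for Ezh2, -0.512 to 0.0296 for Kmt5a, -0.125 to 0.336 for Ehmt2, -0.886 to 0.192 for Cbx7, -0.128 to 0.00543 for Hdac2 and -0.0457 to 0.446 for Pcgf6. Between the diets 0 to 2 of the 9 scores and totals had a p under 0.05 without 1 library each. Differences of HFB minus CTL then ran from -0.425 to 0.215 for the adipocyte, -0.148 to 0.86 for the muscle, -0.00229 to 1.55 for the lymphoid and -0.0413 to 0.268 for the macrophage score, and without the 3 libraries were -0.165 (muscle) and -0.0372 (macrophage). The cause of these shifts was not tested. Over the values of single genes, slopes and scores in all runs, 901 kept direction and side of the threshold and 24 turned sign. A further 16 lost the threshold and 5 gained it. For single genes by diet the side was that of the adjusted p, which no gene of the table passed in any run. That side could therefore not change, and the count of 901 is no measure of stability there. Libraries of the diets could not be paired, as their numbers differ. Setd7, Nsd3 and Kdm6b dropped out at a minimum of 10 counts per library, and a change in Setd7 was not detectable in HFB 5, which held 2 counts of it.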
